A study of Mus musculus with 577 samples.

Results

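Chromatin regulators other than the Polycomb and DNA methylation enzymes were examined across mouse oocytes, granulosa cells and embryonic stem cells, for 10 genes: Nsd1, Setd2, Ogt, Phf21a, Kdm1a, Kdm1b, Smarca4, Smarca5, Kmt2b and Kmt2d. They are 10 of the 22060 protein-coding genes in the count tables, and each was found once by its symbol. The genes were chosen by name with the levels of these same libraries by oocyte stage, granulosa position and cell type in view, so those levels are given as a description and support nothing by themselves. Of the 577 samples, 562 gave counts per gene and 15 gave counts per exon.

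The ovarian cells came from 8-week-old mice, for which the labels give neither genotype nor strain. Cells were cut by laser capture microdissection (LCM) from alcohol-fixed, cresyl violet-stained frozen sections, and most were lysed with DRaqL, a denaturing detergent that is quenched before cDNA synthesis. DRaqL-SC3-seq, which reads the 3′ ends of cDNAs, covered 30 oocytes of secondary-to-early antral follicles and 14 oocytes of primary follicles, 31 granulosa cells neighboring the oocyte and 26 non-neighboring granulosa cells. It also covered 7 neighboring and 7 non-neighboring pools of about 10 granulosa cells each, 7 bulk samples of the whole granulosa of a sectioned follicle, and 2 serial sections each of 8 oocytes. Mouse embryonic stem cells (mESCs), grown in 2i-LIF medium, were taken freshly dissociated (45 cells) or by LCM from sections of frozen cell blocks (36 cells), and the cDNA of 5 oocytes, 5 fresh and 5 LCM mESCs was also sequenced along its length with a Y-shaped adapter. Alcohol-fixed sections were also profiled by SMART-Seq v4 (11 and 7 oocytes of the later and the primary stage, 17 and 17 neighboring and non-neighboring granulosa cells), DRaqL-SMART-Seq v4 (9 and 6 oocytes, 20 and 19 granulosa cells), LCM-seq (17 and 20 granulosa cells) and DRaqL-Smart-seq2 (15 and 19 granulosa cells). Sections fixed for 24 h in formalin gave 7 and 5 oocytes and 12 and 12 granulosa cells. The ovaries of 1 mouse in proestrus gave 8 oocytes and 35 and 35 granulosa cells by LCM, and 14 grown oocytes and 14 attached and 21 unattached granulosa cells by dissociation.

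A level below is log2(RPM + 1), where RPM is the read count of a gene scaled to 1000000 reads on protein-coding genes, and a difference of 1 on that scale is a doubling for well-detected genes. Libraries of single cells held 12748 such reads (a dissociated granulosa cell) to 17506401 (a section of an oocyte), those of DRaqL-SC3-seq oocytes 873206 to 2338750, and the pools 3811945 to 8259281. No label ties a cell to an animal, so that every group of single cells counted as 1 sample: the means carry the SD over cells, and no p-value was computed between groups of single cells. The study states that the amplification methods it compared on ovarian sections were all run on the same ovary. Agreement between methods is therefore not agreement between animals. Intervals on summed reads and on shares of cells cover counting error only. The labelled types had the RNA of their markers. In DRaqL-SC3-seq the 30 later-stage oocytes held 18078 to 45666 RPM of 14 oocyte markers and the 14 primary ones 3720 to 21876. Granulosa cells reached 17299 (neighboring) and 14355 RPM (non-neighboring), inside the range of primary oocytes. Of 10 granulosa markers, neighboring cells held 1574 to 14608 RPM and non-neighboring ones 2913 to 26091, against 63.4 to 1078 in later-stage and 42.4 to 1554 in primary oocytes. Any reads of these 10 do not separate the types, since all 10 had reads in both oocyte groups. mESCs had stem cell marker RNA.

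These genes act on the histone tails and nucleosomes of a genome that, in a growing oocyte, gains its maternal DNA methylation marks. Kmt2b and Kmt2d methylate lysine 4 of histone H3, at promoters and at enhancers, respectively, and Kdm1a and Kdm1b take methyl groups off the same residue. Kdm1b is known for its part in setting maternal imprints in oocytes, and Phf21a binds unmethylated lysine 4 as a partner of Kdm1a. Nsd1 and Setd2 methylate lysine 36 of histone H3, a mark that recruits DNA methyltransferases, Ogt attaches O-linked N-acetylglucosamine to nuclear and cytoplasmic proteins, and Smarca4 and Smarca5 are the ATP-consuming motors of the SWI/SNF and ISWI nucleosome remodelers.

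The members lie on 8 chromosomes of GRCm38, with Nsd1 (chr13:55209782-55318325) and Kdm1b (chr13:47043499-47085279) on one and Setd2 (chr9:110532597-110618633) and Smarca4 (chr9:21616169-21704230) on another. RefSeq promoter windows of GRCm38.p6, from 250 bases before to 50 bases after a start, were found for 8 members (10 windows), and for Nsd1 and Kmt2b none was found. The 250 bases before the start are shown for the pair of demethylases, whose levels differed most in opposite ways between oocytes and mESCs, for Kmt2d, whose mean was higher in the later oocyte stage in the alcohol-fixed sections, and for Phf21a, whose mean was lower there in 2 of those 3 methods. Capitals mark the GC box, GGGCGG, or its reverse complement.

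Kdm1b, chr13:47043249-47043498, plus strand: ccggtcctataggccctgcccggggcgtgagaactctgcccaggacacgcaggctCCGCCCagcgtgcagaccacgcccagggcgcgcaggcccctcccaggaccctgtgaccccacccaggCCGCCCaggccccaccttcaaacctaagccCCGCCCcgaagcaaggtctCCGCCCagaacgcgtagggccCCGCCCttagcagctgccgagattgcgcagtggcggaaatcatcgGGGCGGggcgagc

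Kdm1a, chr4:136602724-136602973, minus strand: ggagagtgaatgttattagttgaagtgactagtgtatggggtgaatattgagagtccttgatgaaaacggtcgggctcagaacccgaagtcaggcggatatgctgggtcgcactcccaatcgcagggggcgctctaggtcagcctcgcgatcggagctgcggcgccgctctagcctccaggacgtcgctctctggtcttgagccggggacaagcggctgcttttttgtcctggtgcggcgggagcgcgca

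Kmt2d, chr15:98871206-98871455, minus strand: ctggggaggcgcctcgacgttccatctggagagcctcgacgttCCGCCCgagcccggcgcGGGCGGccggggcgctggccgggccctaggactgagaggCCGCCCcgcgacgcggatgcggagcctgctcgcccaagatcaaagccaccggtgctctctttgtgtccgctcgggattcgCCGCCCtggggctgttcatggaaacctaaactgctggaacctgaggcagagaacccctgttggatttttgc

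Phf21a, chr2:92185233-92185482, plus strand: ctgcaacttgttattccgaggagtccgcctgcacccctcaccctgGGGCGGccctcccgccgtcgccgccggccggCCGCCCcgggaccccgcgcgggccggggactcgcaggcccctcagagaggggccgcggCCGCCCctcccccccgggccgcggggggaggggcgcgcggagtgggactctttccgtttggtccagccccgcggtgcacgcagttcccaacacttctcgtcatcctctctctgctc

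Kdm1b has 6 GC boxes in its window, Kmt2d 4, Phf21a 3 and Kdm1a 0, and Setd2 has 7. The GC box, searched on both strands, occurs in 8 of the 10 member windows and in 35.7% of all 32851 windows of this length. All member windows but 1 are rich in CpG: their counts run from 14 to 38, against a median of 7 over all windows, and the exception is the downstream start of Phf21a, with 1 CpG and 33.3% GC. The E-box CANNTG occurs in 6 of the 10 windows (72.3% of all), the ETS core CGGAAG in 3 (16.9%) and the homeobox element TAATTG in 1 (8.0%). These are matches of letters and do not show that a factor binds there.

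Kdm1b was the member with the largest difference between oocytes and the other cells. Its level in DRaqL-SC3-seq was 8.41 ± 0.43 in the later-stage oocytes (SD, n = 30; lowest 7.18, median 8.41, highest 9.18) and 8.85 ± 0.78 in the primary ones (n = 14; lowest 7.43, median 9.06, highest 10.31). Summed over cells it came to 355.3 RPM in the later stage (95% Poisson interval 349.967 to 360.736) and 509.2 RPM in the primary stage (499.63 to 518.952). Among granulosa cells the median was 0 in both positions, with means of 1.03 ± 1.91 (n = 31) and 0.95 ± 1.88 (n = 26). In mESCs Kdm1b stood at 3.13 ± 1.97 when fresh and 1.97 ± 2.47 after LCM, and the step from oocytes to fresh mESCs was the gap in its ordering of groups that exceeded the SD of cells. All oocytes had Kdm1b reads, in every method.

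**Figure D1:**
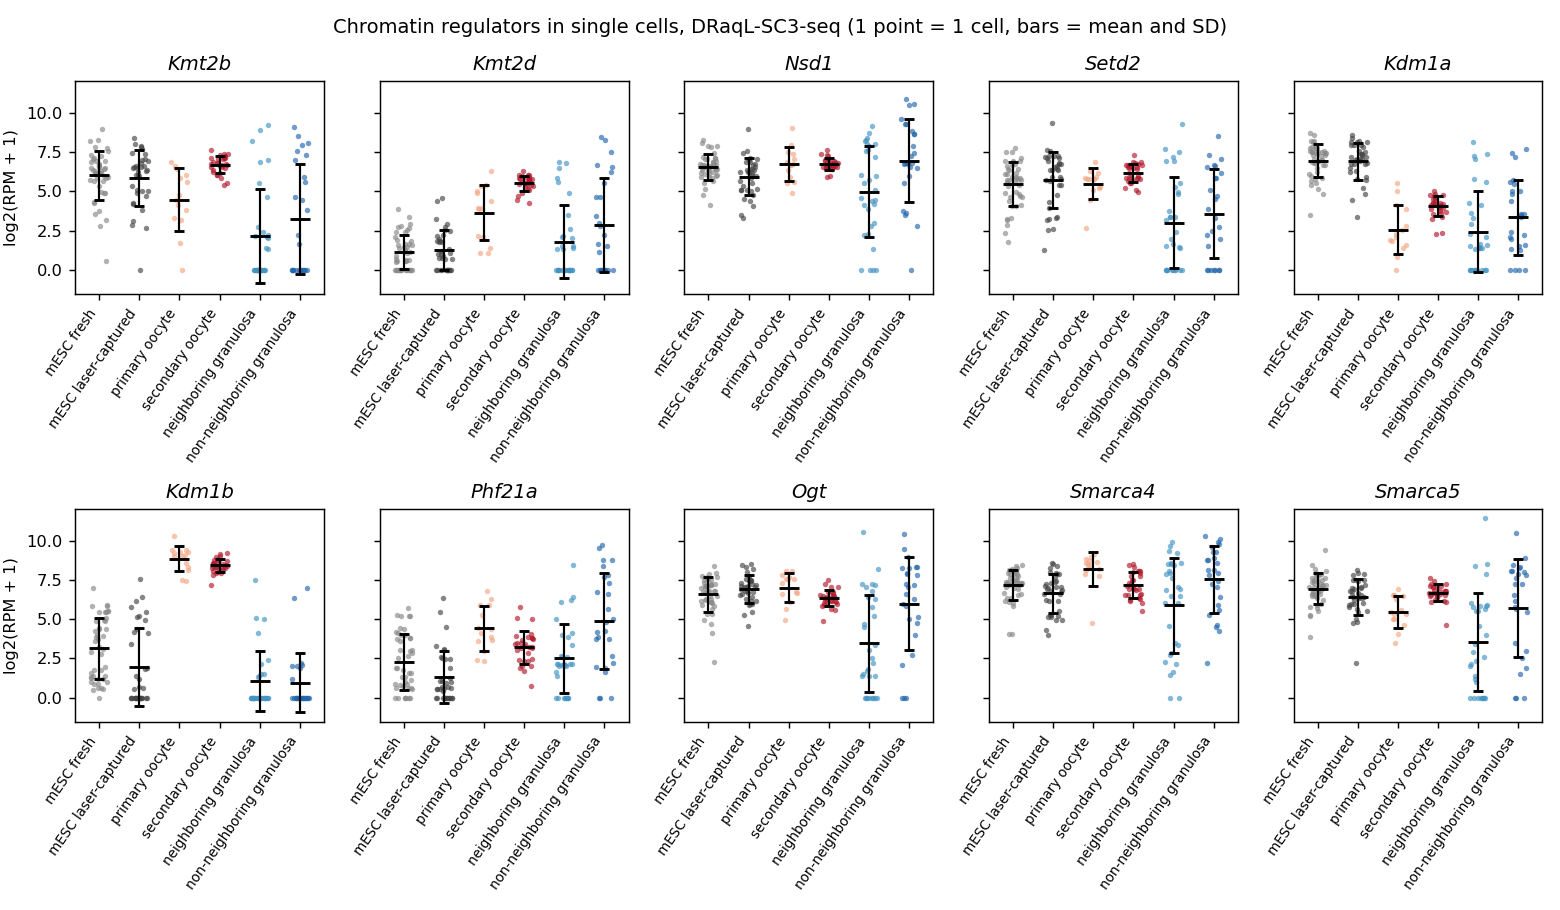
Level of each of the 10 genes, as log2(RPM + 1), in every single cell of the 6 DRaqL-SC3-seq groups (primary and later-stage oocytes, neighboring and non-neighboring granulosa cells, fresh and LCM mESCs), with the mean and SD of the group. Kdm1b lies above 7 in all 44 oocytes, and Kmt2b, Kmt2d and Kdm1a spread down to or near 0 in the 14 primary oocytes and not in the 30 later ones.

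Oocytes were above granulosa cells in Kdm1b in all 6 sets that hold both cell types, by 7.56 (DRaqL-SC3-seq), 6.48 (SMART-Seq v4), 6.65 (DRaqL-SMART-Seq v4), 6.88 (formalin), 8.17 (same mouse, LCM) and 5.91 (same mouse, dissociated). On summed reads, which weigh cells by their depth and a few rich cells heavily, the difference kept its sign in all 6 and ran from 2.85 to 7.03. The share of granulosa cells with any Kdm1b read was 31.6%, 29.4%, 10.3%, 29.2%, 22.9% and 37.1% in the same order. After each cell was thinned to the depth of the shallowest library, it was 21.1%, 23.5%, 5.13%, 16.7%, 5.71% and 14.3%, against 100% of oocytes in 5 sets and 92.9% in the dissociated one. The granulosa cells also carried oocyte marker RNA, whose part in these shares was not tested. The DRaqL-SC3-seq groups already leave out the cells that the study set aside as mixed with oocytes. In DRaqL-SC3-seq the median was 2943 RPM of oocyte markers in neighboring cells and 64.2 RPM in non-neighboring cells.

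Kmt2b and Kmt2d were the other members with a higher mean in oocytes in all 6 sets together with Setd2 and Smarca5, by 2.17 to 3.74 and 1.70 to 3.62, respectively. Kmt2b was also higher on summed reads in 6 of 6 sets, though by as little as 0.0007 in 1 of them, and Kmt2d in 5 of 6. Smarca5 was higher by 0.65 to 2.35 and Setd2 by 0.13 to 2.69 as means of logs, and each was higher in 4 of 6 sets on summed reads. For others the 2 ways of averaging disagreed. Ogt and Smarca4 were higher in oocytes in 4 and 5 of 6 sets as means of logs and in 0 of 6 on summed reads, with ranges there of -1.53 to -0.03 and -2.35 to -0.12, and Nsd1 and Kdm1a were higher in 4 and 5 sets as means of logs and in 1 each on summed reads. Phf21a was below granulosa cells in 4 sets, with differences of -1.49 to -0.68. It differed by 0.0087 and -0.0065 in DRaqL-SC3-seq and SMART-Seq v4, where scaling by TMM turned its sign. TMM scaling also turned the sign of Ogt after formalin. On summed reads Phf21a was higher in oocytes in 1 of 6 sets, by 0.18 after formalin. By that measure it was at -2.16 in DRaqL-SC3-seq and -0.63 in SMART-Seq v4.

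**Figure D2:**
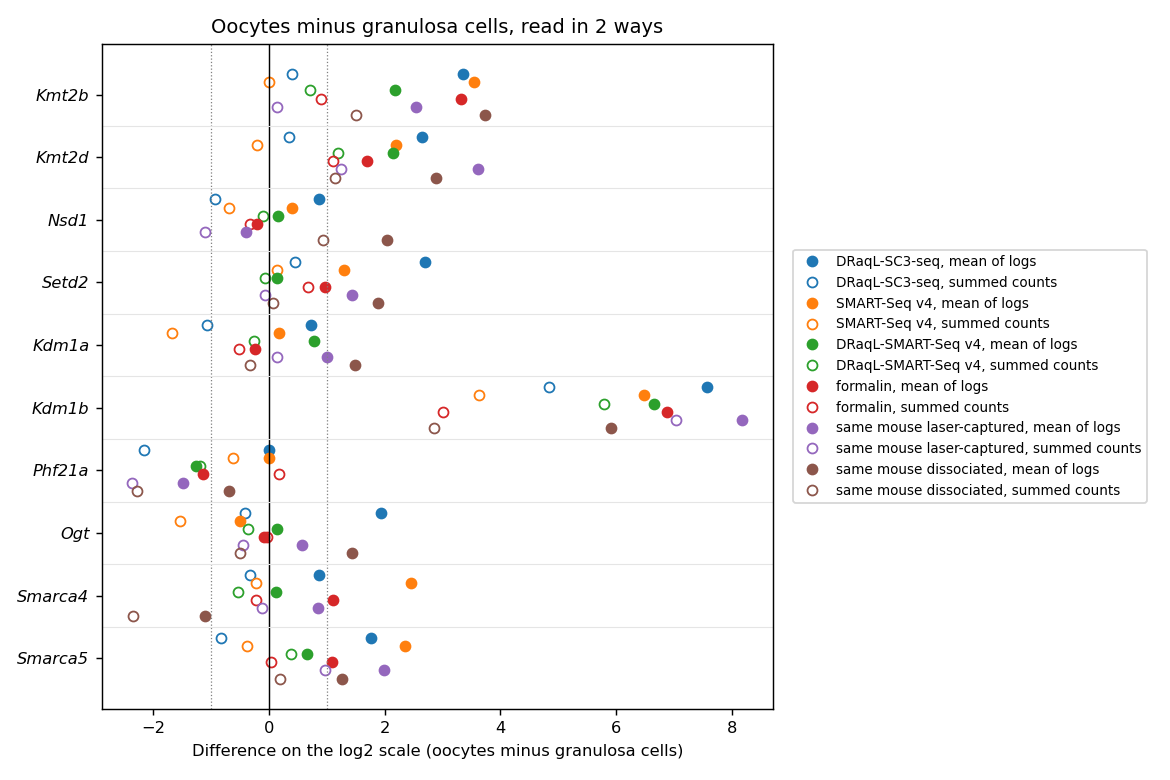
Oocyte minus granulosa level of the 10 genes (log2) in the 6 sets that hold both cell types: filled points are differences of mean log2(RPM + 1) and open points are ratios of summed reads after scaling to RPM. Kdm1b stands at 5.91 to 8.17 as means of logs and 2.85 to 7.03 as summed reads, while the open points of Ogt and Smarca4 lie below 0 in all 6 sets.

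As a group the 10 genes were not farther from granulosa cells than other genes. Their median difference was 1.85 in DRaqL-SC3-seq, where the median of all genes was 1.89, and 1.75 against 1.93, 0.40 against 1.04, 1.03 against 1.10, 1.22 against 1.65 and 1.69 against 1.56 in the order of sets above. In DRaqL-SC3-seq 6 members were higher by at least 1 and 0 lower, among all genes with a mean of at least 1 in either group 71.4% higher and 5.14% lower. The counts in the other sets were 6 higher and 0 lower (background 73.1% and 4.05%), 3 and 1 (51% and 11.1%), 5 and 1 (53.1% and 8.63%), 6 and 1 (63.3% and 11.7%), and 8 and 1 (61% and 16.3%). TMM scaling moves the median of all genes here by -0.16 (DRaqL-SC3-seq) to 0.46.

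The comparison of follicle stages asks which genes change as the oocyte grows. In DRaqL-SC3-seq the methyltransferases of lysine 4, the demethylase Kdm1a and Smarca5 had higher means in the later stage. Kmt2b was 6.69 ± 0.55 in later-stage oocytes (n = 30; lowest 5.42, median 6.74, highest 7.63) and 4.48 ± 1.98 in primary ones (n = 14; lowest 0, median 4.60, highest 6.85), a difference of 2.22. Of the 14 primary oocytes, 8 lay below the lowest later-stage oocyte. Kmt2d was 5.53 ± 0.48 (lowest 4.25, median 5.61, highest 6.30) and 3.64 ± 1.76 (lowest 1.08, median 3.94, highest 6.32), a difference of 1.89, also with 8 of 14 primary oocytes below every later one. For Kdm1a the values were 4.05 ± 0.64 (lowest 2.31, median 4.14, highest 5.00) and 2.56 ± 1.58 (lowest 0, median 2.19, highest 5.53), a difference of 1.49, with 8 of 14 primary oocytes below the lowest and 2 above the highest later-stage one. Smarca5 was higher by 1.19 (6.67 ± 0.54 against 5.47 ± 1.01). Each of these 4 differences exceeded the SD of the cells of both stages.

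Other members leaned to the primary stage in this method. Phf21a stood at 3.20 ± 1.06 in the later-stage and 4.41 ± 1.43 in the primary oocytes, with 4 of 14 primary cells above the highest later one. That difference was within the SD of cells. Smarca4 was 7.16 ± 0.81 and 8.19 ± 1.07, a difference of -1.03 that exceeded the SD, and 7 of 14 primary oocytes exceeded the highest later-stage one. Ogt, at 6.33 ± 0.52 and 7.01 ± 0.93, also had 7 of 14 above that mark. Kdm1b differed by -0.44, Nsd1 by 0.02 (6.75 ± 0.37 and 6.73 ± 1.08) and Setd2 by 0.68 (6.18 ± 0.59 and 5.49 ± 1.00), each less than the SD of cells.

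Kmt2b, Kmt2d and Kdm1a were the members whose mean was higher in the later stage in all 4 methods, which do not stand for 4 animals. Kmt2b differed by 1.93 in SMART-Seq v4 (5.67 ± 0.69, n = 11, against 3.75 ± 2.28, n = 7), 1.60 in DRaqL-SMART-Seq v4 (5.83 ± 0.88, n = 9, against 4.23 ± 2.59, n = 6) and 0.13 after formalin (5.96 ± 0.86, n = 7, against 5.83 ± 1.82, n = 5). Kmt2d differed by 0.72, 3.51 and 0.02 in that order, and Kdm1a by 1.12, 1.14 and 0.38. The formalin differences of all 3 were within the SD of cells, and those of Kmt2b and Kmt2d had no settled sign. With 1 primary oocyte left out, Kmt2b ran there from -0.45 (without oocyte 3) to 0.68 (without oocyte 2) and was also negative without oocyte 4, at -0.16. Kmt2d ran from -0.36 (without oocyte 3) to 0.23 (without oocyte 2) and was -0.13 without oocyte 5, and Kdm1a stayed between 0.08 and 0.61. On summed reads Kmt2b was -1.26 and Kmt2d -0.23 after formalin, and as a median over cells Kmt2d was -0.56. In the alcohol-fixed sets Setd2 went the same way, by 0.68, 0.96 and 2.25. In DRaqL-SMART-Seq v4 its stages did not overlap, from 6.20 to 7.53 in the later and 0 to 6.15 in the primary oocytes, as was the case for 1 of 10 members and 11% of the 13838 genes compared there. Without primary oocyte 2, which had no Setd2 reads, the difference was 1.31.

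Phf21a was lower in the later stage by at least 1 in 3 of 4 methods, more methods than for any other member. Its difference was -1.20 in DRaqL-SC3-seq, -2.46 in DRaqL-SMART-Seq v4 (3.22 ± 1.28 against 5.68 ± 2.08) and -2.68 after formalin. In the formalin-fixed oocytes the stages did not overlap: the 7 later ones lay between 3.53 and 5.35 with a median of 4.73, and the 5 primary ones between 5.37 and 9.01 with a median of 6.99. It was the 1 member without overlap there, where 5.91% of 14103 genes had none. In SMART-Seq v4 the difference was 0.24 (4.80 ± 1.40 against 4.56 ± 1.25), and the stages overlapped widely. Smarca4 was lower in the later stage in DRaqL-SC3-seq, SMART-Seq v4 (-0.29) and formalin (-0.95), and higher by 0.96 in DRaqL-SMART-Seq v4, where it turned to -0.20 without primary oocyte 2. Ogt, at -0.68, 0.10, 1.34 and -1.23 over the 4 methods, held no direction, and its 1.34 was 0.49 without primary oocyte 2.

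**Figure D3:**
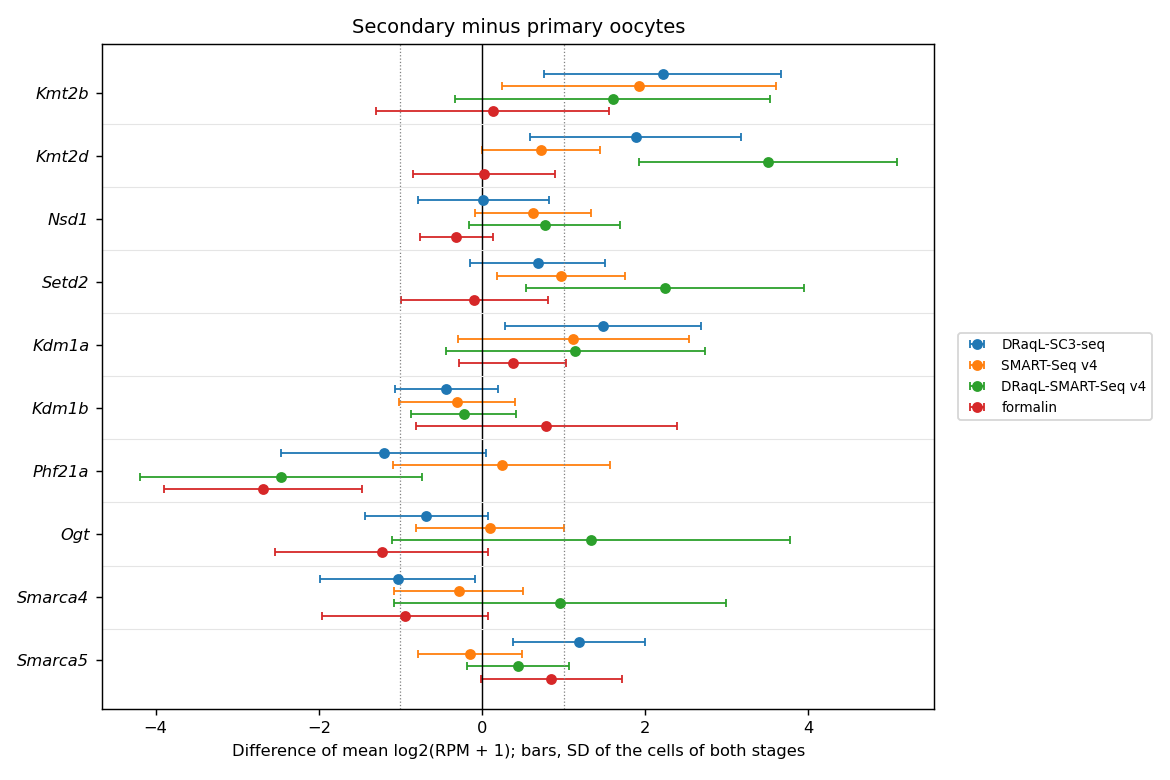
Later-stage minus primary oocyte level of the 10 genes (difference of mean log2(RPM + 1)) in 4 methods, with bars for the SD of the cells of both stages. Kmt2b, Kmt2d and Kdm1a lie above 0 in all 4 methods, though after formalin Kmt2b (0.13) and Kmt2d (0.02) change sign when single primary oocytes are left out or reads are summed, and Phf21a lies below 0 in 3 methods.

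Counts of members follow those of other genes. In DRaqL-SC3-seq 4 members were higher in the later stage by at least 1 and 2 lower, where 32% and 14.9% of genes were. SMART-Seq v4 had 2 and 0 (33% and 15.7%), DRaqL-SMART-Seq v4 5 and 1 (35.2% and 22.2%) and formalin 0 and 2 (27% and 24.7%). The members' medians of 0.35, 0.44, 1.05 and -0.03 stood beside 0.33, 0.35, 0.29 and -0.02 for all genes. Without primary oocyte 2 of DRaqL-SMART-Seq v4, in which Setd2, Smarca4, Ogt and Kmt2d had no reads, that median was 0.41 and the counts were 4 and 1. TMM scaling moved the median of all genes by -0.11 in DRaqL-SC3-seq and 0.21 in DRaqL-SMART-Seq v4, turning the sign of Nsd1 in the former and of Kdm1b in the latter.

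Library pools bear on these stage differences. In DRaqL-SMART-Seq v4 the 9 later-stage and 6 primary oocytes were in separate pools, so that stage and pool cannot be told apart. In SMART-Seq v4 1 later-stage oocyte shared the pool of the 7 primary ones, and within it the differences were 2.65 for Kmt2b, 1.08 for Setd2, 0.76 for Kmt2d, 0.47 for Kdm1a and -0.05 for Phf21a. All 12 formalin-fixed oocytes shared 1 pool. Primary oocytes of DRaqL-SC3-seq also carried more granulosa marker RNA, a median of 587 RPM against 155 RPM, and its part in the stage values was not tested.

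Primary oocytes were the more variable stage over most genes, and the members did not stand apart from them. The SD over cells was larger in the primary stage for 10 of 10 members in DRaqL-SC3-seq, where this held for 92.6% of the 5741 genes with a mean of at least 4 in both stages. It was larger for 5 of 10 members in SMART-Seq v4 (66.6% of genes), 8 of 10 in DRaqL-SMART-Seq v4 (78.1%) and 8 of 10 after formalin (63.4%). Within the 30 later-stage oocytes of DRaqL-SC3-seq, Smarca4 had a Pearson r of -0.77 with the summed level of the oocyte markers, Kdm1b -0.45 and Phf21a -0.40. The other members lay between -0.01 (Ogt) and 0.28 (Setd2), and the median over 7580 genes was -0.04. In the 14 primary oocytes Smarca4, Kdm1b and Phf21a were at -0.28, 0.27 and 0.09, beside a median of -0.03 over 6511 genes. Markers and members share each library's total as their divisor.

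Serial sections give the spread between 2 slices of the same oocyte, which may hold more than technical spread. These libraries held 4232302 to 17506401 reads, more than any oocyte of the DRaqL-SC3-seq stage comparison. Kdm1b differed by a median of 0.20 and at most 0.45 between the 2 sections of an oocyte, while the means of the 8 oocytes ran from 6.98 to 9.36, so that its SD was 0.19 within and 0.77 between oocytes. For Kmt2d, Kmt2b, Kdm1a, Smarca5, Smarca4, Phf21a and Ogt the SD within an oocyte was larger than that between oocytes, up to 1.19 for Ogt, whose sections differed by as much as 3.42. Nsd1 (0.43 within, 0.54 between) and Setd2 (0.45 and 0.58) had slightly more spread between oocytes. The median gap was 0.40 over 7221 genes with a mean of at least 4.

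Partners of the members were taken as fixed lists of their families and complexes. By the same threshold in DRaqL-SC3-seq, where 32% of all genes were higher and 14.9% lower with a median of 0.33, 6 of 19 genes of the lysine 4 methyltransferase complexes were higher in the later stage and 4 lower. The counts were 4 higher and 2 lower of 12 lysine 36 regulators, 3 and 1 of 14 genes of the demethylase complex, and 3 and 3 of 10 genes of O-linked N-acetylglucosamine metabolism. Of 23 SWI/SNF genes 7 were higher and 4 lower, and of 12 ISWI genes, the family of Smarca5, 5 and 1. Over DRaqL-SC3-seq, SMART-Seq v4, DRaqL-SMART-Seq v4 and formalin the ISWI median was 0.85, 0.35, 0.62 and 0.17 and the SWI/SNF median 0.23, -0.28, 0.22 and -0.70, beside 0.33, 0.35, 0.29 and -0.02 for all genes.

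The comparison of positions asks whether granulosa cells that touch the oocyte differ from those that do not. Ogt, Phf21a, Smarca5 and Nsd1 are among the genes that the study itself lists as higher in non-neighboring cells of DRaqL-SC3-seq, so their direction in that set is no independent evidence. There Ogt was 5.97 ± 2.95 in 26 non-neighboring cells (lowest 0, median 6.80, highest 10.44) and 3.46 ± 3.09 in 31 neighboring cells (lowest 0, median 2.50, highest 10.57), a difference of 2.51. Phf21a was 4.88 ± 3.05 and 2.49 ± 2.20, Smarca5 5.70 ± 3.10 and 3.53 ± 3.13, Nsd1 6.96 ± 2.63 and 4.99 ± 2.90, and Smarca4 7.52 ± 2.12 and 5.88 ± 3.03. The positions overlapped over nearly their whole range, and none of the differences exceeded the SD of cells. Kdm1b differed by -0.08.

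The cell numbers in the labels fall into 2 stretches. Among cells numbered up to 69, 20 non-neighboring and 22 neighboring, Ogt differed by 2.64 and Phf21a by 2.03, and among cells numbered 73 and above, 6 and 9, by 2.05 and 3.43. Smarca4 turned from 2.84 to -1.88, Kmt2d from 1.66 to -0.71, Kdm1a from 1.64 to -1.21 and Smarca5 from 2.88 to -0.12. Over the 10 members the median was -0.04 among the cells numbered 73 and above.

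The 8 data sets do not stand for 8 animals. Over them the mean was higher in non-neighboring cells in 7 sets for Phf21a, in 6 each for Ogt and Kdm1a and in 5 each for Setd2, Smarca4 and Kmt2d. It was higher by at least 1 in 5 sets for Kmt2d and in 4 each for Ogt and Phf21a, with medians over the sets of 1.11, 1.06 and 1.04. These counts include DRaqL-SC3-seq, where the study itself lists Ogt and Phf21a as higher. In the order DRaqL-SC3-seq, SMART-Seq v4, DRaqL-SMART-Seq v4, LCM-seq, DRaqL-Smart-seq2, formalin, same-mouse LCM and same-mouse dissociated cells, Phf21a differed by 2.39, 0.11, -0.58, 0.10, 0.93, 1.68, 1.27 and 1.14. Ogt differed by 2.51, -0.72, 1.27, 0.74, -0.68, 1.83, 0.85 and 2.17. Kmt2d was higher by 1.05 in DRaqL-SC3-seq, 1.73 in SMART-Seq v4, 1.16 in DRaqL-Smart-seq2, 1.77 in dissociated cells and a value between the last 2 in the same-mouse LCM set, and differed by -0.41, -0.27 and -0.05 in DRaqL-SMART-Seq v4, LCM-seq and formalin. After formalin these 2 genes exceeded the SD of cells, the only members to do so in any of the 8 sets: Ogt was 8.00 ± 1.37 in 12 non-neighboring and 6.17 ± 1.34 in 12 neighboring cells, and Phf21a 7.76 ± 1.32 and 6.08 ± 1.54. The ranges still overlapped, from 4.25 to 9.66 and 4.37 to 8.57 for Ogt.

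Each of the 10 members changed direction at least once over the 8 sets. Smarca5 ran from -0.95 (LCM-seq) to 2.17, Nsd1 from -0.42 (formalin) to 1.97, Kmt2b from -1.21 (LCM-seq) to 1.07 and Setd2 from -1.90 (SMART-Seq v4) to 2.51 (dissociated). Smarca4 ran from -0.71 to 1.99 and Kdm1a from -0.40 to 2.01. Kdm1b was higher in neighboring cells in 5 of 8 sets, by up to 1.65 (LCM-seq). TMM scaling moved the median of all genes by 0.22 in the same-mouse LCM set and turned the signs of Nsd1, Kdm1a and Smarca4 there.

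**Figure D4:**
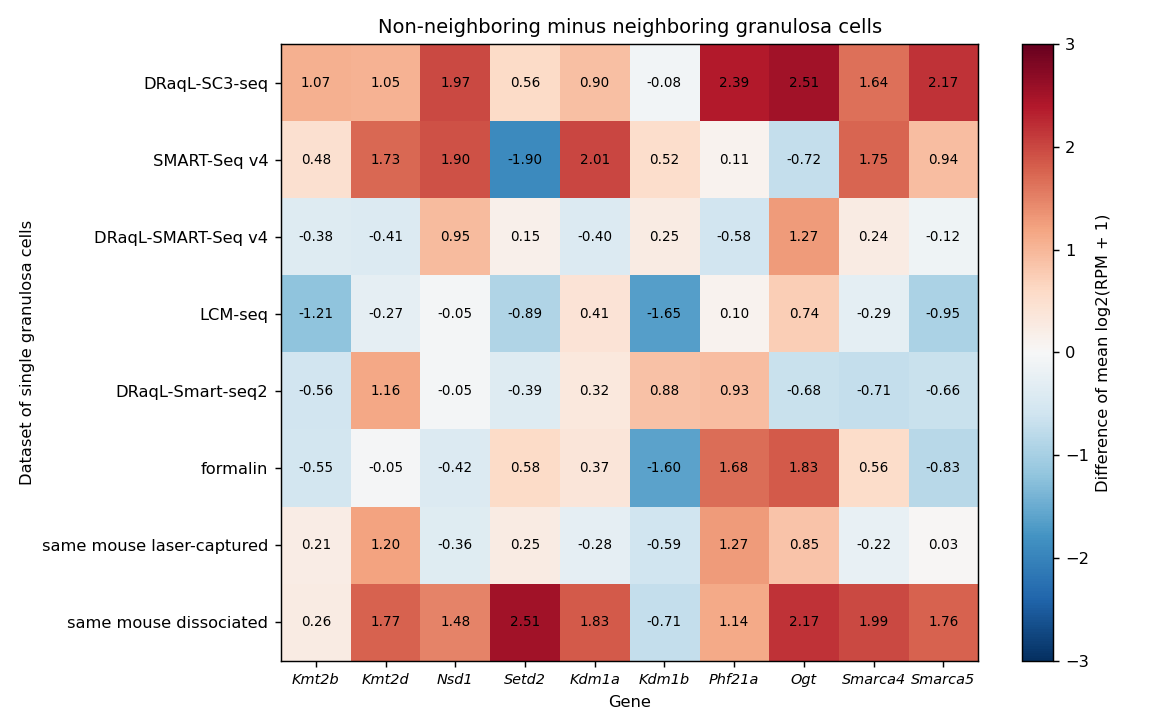
Non-neighboring minus neighboring granulosa cell level (difference of mean log2(RPM + 1)) of the 10 genes in 8 data sets, as a heat map with the value printed in each cell. Phf21a is above 0 in 7 sets and Ogt in 6, and most members are high in the DRaqL-SC3-seq and same-mouse dissociated sets. Thinned to the shallowest library, the members' median is 1.50 in the former and 0.68 in the latter.

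By count, 7 members were higher in non-neighboring cells by at least 1 and 0 lower in DRaqL-SC3-seq, where 14.1% and 5.33% of genes were. Among these 7 are Ogt, Phf21a, Smarca5 and Nsd1, which the study lists as higher in this same set, so the count is no independent evidence. The dissociated set had 8 and 0, beside 46.9% and 4.79%. The other sets in order had 4 and 1 (20.0% and 11.4%), 1 and 0 (17.4% and 10.6%), 0 and 2 (7.45% and 20.3%), 1 and 0 (8.34% and 13.7%), 2 and 1 (12.7% and 21.8%) and 2 and 0 (12.0% and 8.31%). The members' median was 1.36 in DRaqL-SC3-seq and 1.77 in the dissociated set, and between -0.28 and 0.73 in the other 6, while that of all genes was 0.22, 0.92 and between -0.26 and 0.20. Thinned to the shallowest library, the dissociated set gave a members' median of 0.68 and an all-gene median of 0.50. For DRaqL-SC3-seq the thinned medians were 1.50 and 0.23.

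RNA of the marker lists for other cell types moved with position. Oocyte marker RNA was higher in neighboring cells in the sections, for example at medians of 1111 against 38.4 RPM in SMART-Seq v4, 1545 against 29.8 in LCM-seq and 987 against 81.5 after formalin. In dissociated cells the medians were 157 against 155, but the highest cells held 19611 RPM among attached and 2284 RPM among unattached ones. There 3 of 14 attached and 0 of 21 unattached cells passed 10% of the median oocyte's marker RNA. The study reports profiles mixed with oocytes more often in attached cells. The summed RPM of 6 theca or interstitial markers was higher in non-neighboring cells. Medians were 78.1 against 1.68 in DRaqL-SC3-seq, 950 against 39.3 after formalin and 3306 against 11 in dissociated cells. The study took the dissociated cells from cumulus-oocyte complexes, and a sum over markers does not show which cell type made the RNA. The part of this RNA in the position values was not tested. Leaving out cells with over 10% of the median oocyte's marker RNA, 13 of 31 neighboring and 3 of 26 non-neighboring cells in DRaqL-SC3-seq, gave differences of 2.79 for Ogt, 1.95 for Phf21a, 3.14 for Smarca5 and 2.23 for Nsd1. The median over the members was then 1.75 in that set and 0.13 after formalin.

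The pools of about 10 cells allowed a test over samples. In pools, as in bulk samples, fewer cells of a type and less RNA per cell cannot be told apart, and the labels do not say which pools share an animal, so that p-values measure the spread between these pools. Of 9704 genes tested by edgeR's quasi-likelihood test with Benjamini-Hochberg adjustment, 46 (0.474%) passed an adjusted p of 0.05, all lower in non-neighboring pools, and 403 had an unadjusted p under 0.05. The direction of the calls depended on the tool: DESeq2 called 416 genes, of which 26.9% were higher in non-neighboring pools, and with the bulk samples in the edgeR fit 9.82% of the calls were higher. Among the members 9 were tested, and 0 passed, adjusted or unadjusted, while DESeq2 called 1, Kdm1b. The median log2 fold change of the 9, non-neighboring over neighboring, was 0.06, beside 0.01 for all genes.

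Kdm1a and Phf21a, partners in 1 complex, had the largest positive values in the pools. Phf21a was at 4.42, 6.24, 0.97, 1.01, 1.95, 6.66 and 3.97 in neighboring pools 1 to 7 and at 6.19, 5.80, 6.90, 4.78, 5.92, 3.71 and 4.94 in the non-neighboring ones. The non-neighboring pools lay within the range of the neighboring ones but for 1, and 3 neighboring pools fell below all of them. Its log2 fold change was 1.00 ± 1.03 (SE; 95% interval -1.24 to 3.25; edgeR adjusted p = 0.998), and it was 0.43 without the pools numbered 3 and 1.94 without those numbered 6. Kdm1a was at 4.66, 2.91, 1.41, 0.59, 4.06, 2.31 and 4.74 in neighboring and 5.76, 3.46, 4.16, 4.75, 4.53, 2.38 and 5.41 in non-neighboring pools, with overlapping groups and a log2 fold change of 1.33 ± 1.06 (-0.99 to 3.65; edgeR adjusted p = 0.998).

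The other tested members had log2 fold changes of 0.46 ± 0.81 (Ogt), 0.22 ± 1.13 (Setd2), 0.06 ± 0.58 (Smarca4), -0.07 ± 0.93 (Kmt2b), -0.37 ± 1.15 (Smarca5), -0.63 ± 0.58 (Nsd1) and -0.94 ± 1.08 (Kmt2d), each with an edgeR adjusted p of 0.998. Intervals this wide do not show that the positions are alike. On simulated pools the same test found 6 of 100 genes changed by 2 on the log2 scale and 38 of 100 changed by 4. Smarca4 stood at 7.27 to 9.02 in 6 neighboring pools and 7.32 to 8.75 in the 7 non-neighboring ones, but at 2.02 in neighboring pool 4, which also had no Kmt2b and no Smarca5 reads. In the 7 bulk samples the levels were 7.80 ± 0.37 for Smarca4, 7.34 ± 0.87 for Ogt, 6.90 ± 0.23 for Nsd1, 6.10 ± 0.43 for Kmt2b, 5.96 ± 0.70 for Phf21a and 4.67 ± 0.43 for Kdm1a.

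**Figure D5:**
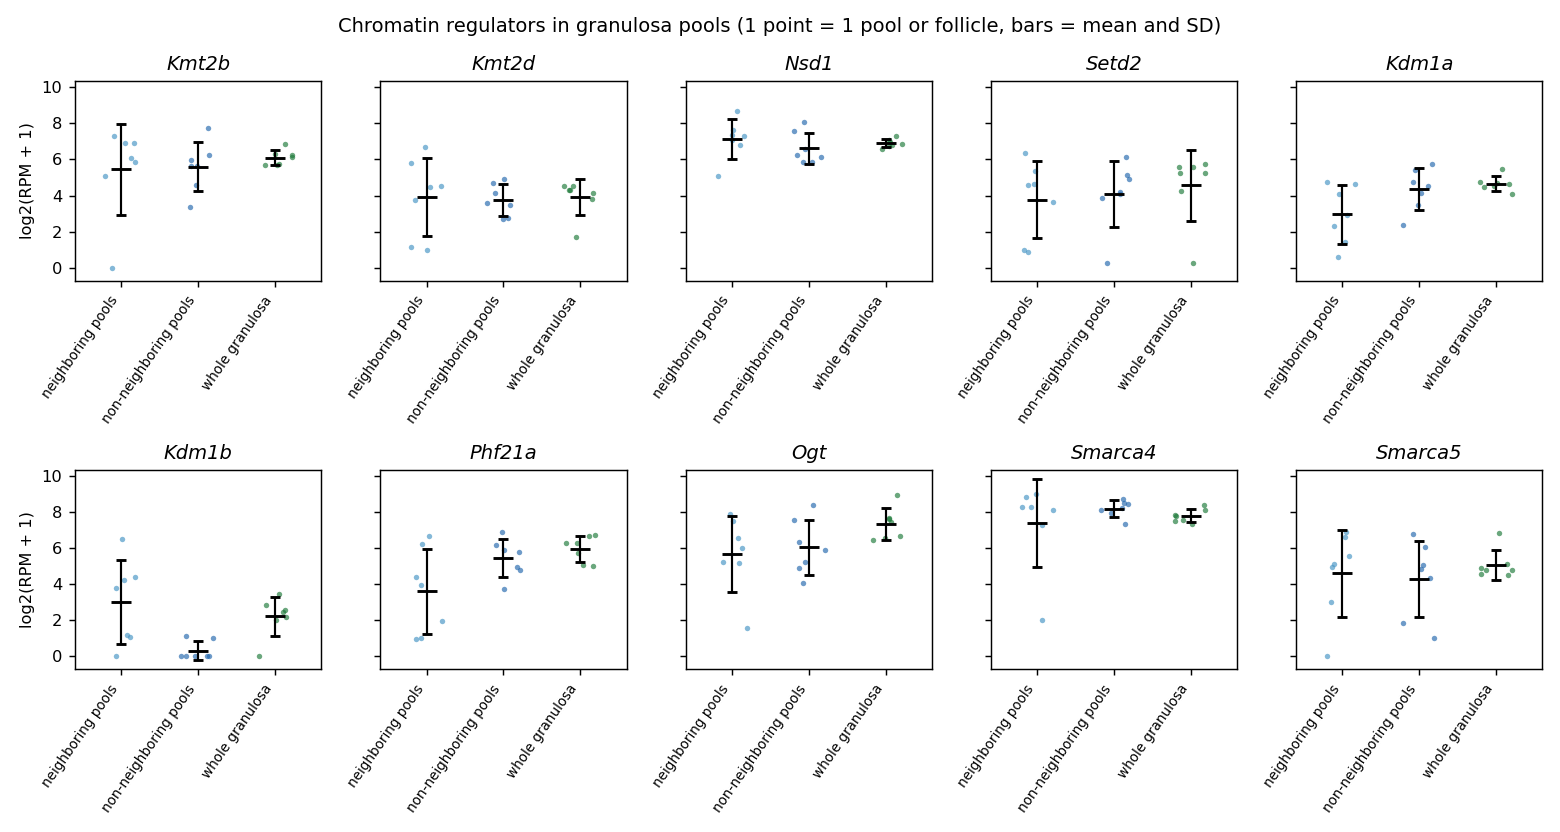
Level of the 10 genes, as log2(RPM + 1), in 7 neighboring pools, 7 non-neighboring pools and 7 bulk samples of granulosa, each point 1 library, with the mean and SD. The positions overlap for 9 genes over most of their range, and Kdm1b is at or near 0 in the non-neighboring pools.

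Kdm1b was the member with a pattern in the pools, and it failed the filter on low counts. Neighboring pools 1 to 7 were at 3.77, 4.25, 1.16, 0, 6.53, 1.09 and 4.39, from 52, 80, 9, 0, 384, 6 and 121 reads, and the non-neighboring pools were at 1.14, 1.00 and 5 times 0, from 10 reads in all. Fitted without the filter, its log2 fold change was -5.82 ± 2.01 (edgeR adjusted p = 0.15), and with the bulk samples in the fit it was -5.80 (edgeR adjusted p = 0.103). DESeq2 gave -5.84 with an adjusted p of 0.0113. Oocyte marker RNA moved with it: the same neighboring pools held 1083, 1582, 876, 6924, 8865, 6923 and 856 RPM of the 14 oocyte markers, the non-neighboring ones 2.34 to 151 RPM, and 9 of the 14 markers were among the genes called lower in non-neighboring pools. Kdm1b made up 1.17%, 1.14%, 0.141%, 0%, 1.03%, 0.0164% and 2.34% of that marker RNA in neighboring pools 1 to 7, where it made up 0.315% to 2.41% (median 0.858%) in the 30 later-stage oocytes and 2.20% to 14.8% (median 5.28%) in the 14 primary ones. Bulk samples 6 and 8 had 34 and 24 Kdm1b reads beside 10.9 and 4.97 RPM of oocyte markers, so that Kdm1b came to 42.0% and 126% of their marker RNA, while the other 5 bulk samples were at 0% to 1.84%. Pools 4 and 6, with much oocyte marker RNA, had 0 and 6 Kdm1b reads, and the part of oocyte RNA in the Kdm1b values of the pools was not tested. Theca and interstitial marker RNA had a median of 962 RPM in non-neighboring and 0.48 RPM in neighboring pools.

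Of the partner lists, 10, 19, 11, 10, 22 and 12 genes were tested in the pools for the lysine 36, lysine 4, demethylase, O-linked N-acetylglucosamine, SWI/SNF and ISWI lists, and 0 passed. The 2 with the largest fold changes in each list were Kdm2b (-2.67 ± 1.28) and Whsc1l1 (1.83 ± 1.35), Rbbp5 (2.61 ± 1.51) and Kdm5a (-1.62 ± 1.15), and Zfp217 (2.19 ± 1.54) and Zmym2 (2.18 ± 1.39). They were Uap1 (1.37 ± 1.35) and Bap1 (-1.01 ± 1.31), Smarcd3 (2.15 ± 0.91) and Bcl7b (-1.88 ± 1.25), and Rbbp7 (-1.55 ± 0.53) and Cecr2 (-1.48 ± 1.24) for the last 3 lists. Rbbp7, a histone-binding subunit shared by several complexes, had an edgeR adjusted p of 0.631 and the others 0.998.

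mESCs served as the reference cell of the study, and Kdm1b, Kmt2d, Kdm1a and Phf21a were the members that lay farthest from them in oocytes. Kdm1a was 6.95 ± 1.05 in fresh and 6.92 ± 1.17 in LCM mESCs, against 4.05 ± 0.64 and 2.56 ± 1.58 in later-stage and primary oocytes. Oocytes of DRaqL-SC3-seq minus LCM mESCs gave -3.34 for Kdm1a and 6.59 for its paralog Kdm1b. Kmt2d, at 1.16 ± 1.09 in fresh and 1.28 ± 1.27 in LCM mESCs, was higher in oocytes by 3.65, and Phf21a, at 2.28 ± 1.79 and 1.32 ± 1.64, by 2.27. The others differed by -0.36 (Ogt) to 0.85 (Smarca4). By count 3 members were higher in oocytes by at least 1 and 1 lower, where 54.2% and 15.8% of genes were, and the members' median was 0.52 beside 1.17 for all genes. TMM scaling moved the latter by -0.31 and turned the signs of Setd2 and Kmt2b, whose differences were 0.24 and 0.17.

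Counts per exon from the Y-shaped adapter libraries were expressed as RPKM over the exons of each gene. The study describes these libraries, made from the same cDNA, as biased toward 3′ ends, and the exon lengths ran from 3.93 kb (Kdm1a) to 19.9 kb (Kmt2d), so that the order of levels between short and long genes is uncertain and was not tested. In 5 oocytes Kdm1b was the highest member at 69.7 ± 31.8 RPKM (SD), followed by Smarca4 (24.1 ± 19.3), Kmt2b (14.7 ± 3.29), Ogt (13.6 ± 3.60) and Smarca5 (10.9 ± 5.22). Setd2 (8.36 ± 2.88), Nsd1 (8.19 ± 3.89) and Kdm1a (4.82 ± 0.77) came next, and neighbors in the order from Smarca4 to Kdm1a differed by less than the larger of their SDs. Kmt2d (2.38 ± 1.03) and Phf21a (0.746 ± 0.561) were the lowest. In 10 mESCs the order began with Smarca4 (26.9 ± 14.2), Kdm1a (15.1 ± 6.75) and Ogt (14.3 ± 6.36) and ended with Phf21a (0.122 ± 0.227) and Kmt2d (0.094 ± 0.100). Kdm1b was at 2.66 ± 3.63 RPKM there. Oocytes and mESCs did not overlap for 3 of 10 members, Kdm1a, Kdm1b and Kmt2d, where 25.8% of 12552 genes did not. On the log2(RPM + 1) scale these 3 differed by -1.45, 5.98 and 4.21, and 4 members were higher by at least 1 and 1 lower (background 51.9% and 20.8%).

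LCM against freshly dissociated mESCs gave small differences for most members. Kdm1b was lower by 1.16 after LCM, with reads in 52.8% of LCM cells and 97.8% of fresh cells, and was the 1 member past a difference of 1 (0 higher; background 0.793% higher and 9.17% lower). Phf21a was lower by 0.96, Nsd1 by 0.61 and Smarca4 and Smarca5 by 0.52 each, while Ogt (0.33) and Setd2 (0.26) were higher after LCM. In the Y-shaped adapter libraries the direction of Kdm1b was the opposite, 3.87 ± 1.90 in 5 LCM and 0.75 ± 1.67 in 5 fresh cells.

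Genes whose mean level followed a member most closely across 28 groups of single cells were sought among 11243 genes. Kdm1b went with Lhx8, an oocyte transcription factor, and Gpr137b (Pearson r = 0.98 for both), and Kmt2b with 6030458C11Rik (0.94) and Hmga2 (0.93). Phf21a followed Foxp1 (0.91) and Gphn (0.90), Kmt2d followed Ttyh3 and Paip1 (0.91 for both), Smarca5 followed Cep83 (0.89) and Larp4 (0.87), and Setd2 followed Taok1 (0.87) and Brd1 (0.86). Nsd1 went with Dot1l, a methyltransferase of lysine 79 of histone H3, and Usp34 (0.85 for both), Kdm1a with Crlf3 (0.78) and Arl6ip6 (0.76), Smarca4 with Tgs1 (0.76) and Adrbk1 (0.75), and Ogt with Rfwd3 (0.75) and Myof (0.73). Among the members themselves r ran from -0.22 (Phf21a and Kmt2b) to 0.73 (Kdm1b and Kmt2b). The groups share methods and cell types, so that these values describe the table and are no test.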

How the data were processed

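Single oocytes, granulosa cells and mESCs, 10-cell pools and bulk granulosa samples were profiled by RNA-seq. The authors deposited raw counts per gene (and per exon for 15 libraries of DRaqL-SC3-seq cDNA made with a Y-shaped adapter and biased toward 3′ ends). Per the labels they used fastp 0.20.0, cutadapt 1.16, HISAT2 2.1.0, HTSeq 0.10.0 and featureCounts 2.0.1 with GRCm38. Most methods read 3′ ends without molecular identifiers, so RPM does not scale with gene length and intervals cover counting error only.

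The members, the partner lists and the marker lists were chosen with earlier results of these data known. Counts of 22060 protein-coding genes were scaled to RPM, and log2(RPM + 1) was averaged per group. Noncoding genes, a median of 29.4% of counts in pools, were left out of the totals. Of 562 libraries, 0 were identical. DRaqL-SC3-seq granulosa groups leave out 3 cells deposited apart as cells of mixed profile (1 neighboring, 2 non-neighboring), which enter as an alternative. The study set aside granulosa cells whose profiles were mixed with those of oocytes. Oocyte markers came to 11803 RPM in the neighboring cell and 1487 to 2949 RPM in the non-neighboring ones of these 3. Cells kept in the main groups reached 17299 RPM (neighboring) and 14355 RPM (non-neighboring). The main groups were thus filtered on mixed profiles and not on the level of oocyte marker RNA. Pools were compared by edgeR 4.0.16 (R 4.3.3, quasi-likelihood, TMM, filterByExpr, adjusted p of 0.05), with DESeq2 1.42.0 as an alternative. On simulated pools the edgeR test recovered 6 of 100 genes changed by 2 on the log2 scale and 38 of 100 changed by 4, with 1 false call. Shares were thinned to the shallowest library of a comparison. All 10 members are named, with the 2 partner genes of each list with the largest fold change in pools and the 2 genes most like each member. Alternatives were pseudocounts of 0.1 and 10, TMM, summed counts, medians, thinning, leaving out cells or replicates, and a pool block. Other tools were Python 3.11.15, numpy 2.4.6, pandas 2.3.3, scipy 1.17.1 and matplotlib 3.10.9. Exon RPKM was computed from the counts over exons of each gene.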

Additional observations from a re-analysis of the deposited data

Results flagged for a closer look

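In groups of 4 to 10 libraries, 18 of 100 gene and group combinations had 1 library far from the others by Dixon's criterion, where chance gives about 1 in 20. Primary oocyte 2 of DRaqL-SMART-Seq v4 was low for 3 members, with Nsd1 at 4.00 (next 6.56), Setd2 at 0 (next 4.65) and Smarca4 at 0 (next 6.34), and primary oocyte 5 had Kdm1a at 1.38 (next 5.31). In the later-stage oocytes of that method, oocyte 7 had Phf21a at 0 (next 3.08) and oocyte 1 had Kdm1a at 4.00 (next 6.41). After formalin, primary oocyte 2 had Smarca5 at 5.13 (next 7.46) and later-stage oocyte 3 had Setd2 at 5.03 (next 7.71). Of the SMART-Seq v4 primary oocytes, oocyte 3 had Kdm1b at 7.26 (next 8.11) and oocyte 4 had Smarca5 at 5.25 (next 6.56). Later-stage oocyte 8 of the same-mouse LCM set had Phf21a at 6.75 (next 5.42).

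Bulk granulosa sample 2 stood apart for 4 members, with Setd2 at 0.27 (next 4.23), Kdm1b at 0 (next 2.00) and Kmt2d at 1.71 (next 3.79) as the lowest and Smarca5 at 6.84 (next 5.10) as the highest value. Neighboring pool 4 had Smarca4 at 2.02 (next 7.27) and Kmt2b at 0 (next 5.06), and non-neighboring pool 2 had Setd2 at 0.26 (next 3.88). Without pool number 4, the log2 fold change of Smarca4 in the pools was -0.15 in place of 0.06.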

How the results depend on the processing

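Of 1608 values of single members under an alternative, 135 had the opposite sign, 18 of them where the reported value was at least 1 in size. Of the summaries 158 moved by less than the spread, or within 1.5 times for counts, 15 moved further and 3 turned, and the cause of each change was not tested. In the pools, 46 genes (0.474% of those tested) were called, against 10 (0.103%; 3 higher and 7 lower) with the pool number as a block, 0.94% with the bulk samples in the fit, 25 (0.200%) when noncoding genes were kept and 416 (3.1%) by DESeq2, which also called 1 member (Kdm1b, -5.84). Leaving out 1 replicate number gave 6 to 44 calls (0.0614% to 0.446%) and 0 to 0 members called, with 8, 6 and 10 calls without pools 4, 5 and 6. Pools of the same number correlated at 0.014 to 0.204, over 0.1 in 2 of 7 pairs, beside a median of -0.013 for pools of different numbers. For 4 of 7 neighboring pools the best match was the pool of their own number. Whether pools of a number share a follicle or an animal is not in the labels and was not tested. The replicate block called 0 members and gave Phf21a 2.38. Without 1 replicate number the log2 fold change turned for Nsd1 (-1.07 to 0.10), Setd2 (-0.39 to 0.91), Smarca4 (-0.15 to 0.57), Smarca5 (-1.09 to 0.34) and Kmt2b (-0.82 to 0.25), and scaling to library totals gave Setd2 -0.0286.

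Without replicates, the members' median of the DRaqL-SMART-Seq v4 stage difference was 0.29 on summed reads, where Ogt turned to -0.73 (-0.40 as a median over cells). Summed reads gave members' medians of oocyte minus granulosa of -0.37 in DRaqL-SC3-seq, -0.30 in SMART-Seq v4, 0.11 after formalin, 0.0298 in the same-mouse LCM set and 0.13 in dissociated cells, and a pseudocount of 10 gave 0.92 and 0.74 in the first 2. Summed reads turned 6, 5, 5, 2, 3 and 2 members in DRaqL-SC3-seq, SMART-Seq v4, DRaqL-SMART-Seq v4, formalin and the same-mouse LCM and dissociated sets. Among those at least 1 in size, in all these sets but DRaqL-SMART-Seq v4, they turned Ogt (-0.42) and Smarca5 (-0.83), Smarca4 (-0.22), Smarca5 (-0.38) and Kmt2d (-0.21), Phf21a (0.18) and Smarca4 (-0.22), Setd2 (-0.0755), and Ogt (-0.50) and Kdm1a (-0.33), in that order, and thinning turned Kdm1a (-0.16) in the LCM set. TMM scaling gave a median of -0.0021 for DRaqL-SC3-seq oocytes minus mESCs. For position, the DRaqL-SC3-seq cells numbered 73 and above gave a median of -0.0394, with Smarca4 -1.88, Smarca5 -0.12 and Kmt2d -0.71. Kmt2b in LCM-seq was 0.11 on summed reads, and Kmt2d in dissociated cells was -0.21 after thinning. The fit without primary oocyte 2 was chosen after seeing the data. Granulosa libraries of dissociated cells, from 12748 reads, limit what shares at 0 can show.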
